A study of Mus musculus with 10 samples.

Results

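Amino acid transporters of the SLC1, SLC3, SLC6, SLC7, SLC36, SLC38 and SLC43 families were examined in obstructed mouse kidneys of 2 genotypes. Members were the protein-coding genes whose symbols belong to these families, without Slc7a11, with a mean level of at least 1 FPKM over the 10 libraries. FPKM is the number of sequenced fragments scaled to the length of the gene and the size of the library. The size used here was already scaled between libraries. By symbol there were 63 candidates among the 54532 genes of the table, and 38 of them reached that mean and were among the 13435 genes tested. All 38 had a mean of at least 1 FPKM in both groups, so none passed through 1 group alone. The members were chosen by their mean level, and their levels are therefore given as a description. One of the 38, Slc7a6os, matches by symbol but is named for its position beside Slc7a6 and is no transporter. The symbols also take in carriers of taurine, creatine and nucleobases.

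The study sequenced messenger RNA of kidneys 10 days after obstruction of their ureter (unilateral ureteral obstruction), which takes away tubular function and leads to scarring. The 5 wild-type libraries and the 5 libraries labelled Padi4 knockout all came from obstructed kidneys. Padi4 encodes peptidylarginine deiminase 4, an enzyme that turns arginine into citrulline, in histones among other proteins. The sources used here do not give strain, age, sex, the form of the Padi4 allele or whether each library came from a separate animal, so p-values measure the spread between these libraries, which may be partly technical. No unobstructed kidney was analysed here, and the effect of obstruction itself cannot be read from these values.

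The proximal tubule takes back nearly all amino acids that the glomerulus filters. Carriers in the apical brush border bring them from the lumen into the cell, and a different set in the basolateral membrane passes them on to the blood. Several work as heterodimers, in which a heavy chain (Slc3a1, also called rBAT, or Slc3a2, also called 4F2hc or CD98) brings a light chain of the SLC7 family to the membrane. Loss of SLC3A1 or SLC7A9 causes cystinuria in humans, loss of SLC7A7 lysinuric protein intolerance, and loss of SLC6A19 Hartnup disorder.

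The libraries held 15002922 to 16886945 reads over 20693 to 21606 genes. Wild-type 1 stood apart from the other 9 libraries. It lay at -39.9 on the first principal component of all tested genes, which held 29.9% of the variance, and the others lay between -8.97 and 24.3. Its summed level of 17 proximal tubule markers was 18492 FPKM, against 3762 to 10459 FPKM in the others, and its summed level of 8 macrophage markers was 472.5 FPKM, against 837.6 to 1025 FPKM. Reads of mitochondrial genes made up 8.11% there and 3.18% to 5.79% elsewhere. The scaled library size implied by its values was 13557357, below its 15390728 reads, and that of the others was 15421954 to 16682649. Levels in wild-type 1 are thus raised relative to its reads. In bulk tissue, fewer tubule cells and less RNA per tubule cell cannot be told apart. For the apical and basolateral members, the gene lists and the gene pairs, values without this library are given as well. Padi4 measured 0.358 FPKM ± 0.183 (SD, n = 5) in wild-type and 0.256 FPKM ± 0.164 (SD, n = 5) in knockout kidneys, from 6 to 47 reads per library. That difference of -0.11 on the log2(FPKM + 1) scale did not exceed the spread of the libraries (two-sided exact permutation p = 0.373, smallest possible p 0.00794), and the sources used here do not name the deleted exons. The genotype therefore rests on the labels, and knockout stands for libraries so labelled.

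No amino acid transporter passed the test for a difference between the genotypes. With limma on log2(FPKM + 1) and Benjamini-Hochberg adjustment over all 13435 genes, 0 of 38 members and 0% of all genes tested passed an adjusted p of 0.05. At an unadjusted p under 0.05 there were 0 members, against 4.05% of all genes (2.05% higher and 2% lower in knockout kidneys). Limma-voom on recovered reads also called 0 members and 0% of all genes, with 0 members and 3.94% of all genes at an unadjusted p under 0.05. Both groups overlapped in level for every member, whereas they did not overlap for 0.744% of all genes. Of the members, 20 had a higher and 18 a lower fitted value in knockout kidneys, and of all genes 51.6% were higher. The median log2 difference, knockout minus wild type, was 0.0062 over the members and 0.0051 over all genes, and upper quartile scaling put the median of the members at -0.0043.

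These data also bound the size of a difference. The 95% interval of the difference lay within 1 unit of 0 on the log2(FPKM + 1) scale for 36 of 38 members. A unit of this scale is a 2-fold change for abundant genes and a larger one for low genes. Slc7a13 and Slc6a19 were the exceptions, with intervals of -1.84 to 0.83 and -0.26 to 1.40.

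**Figure D1:**
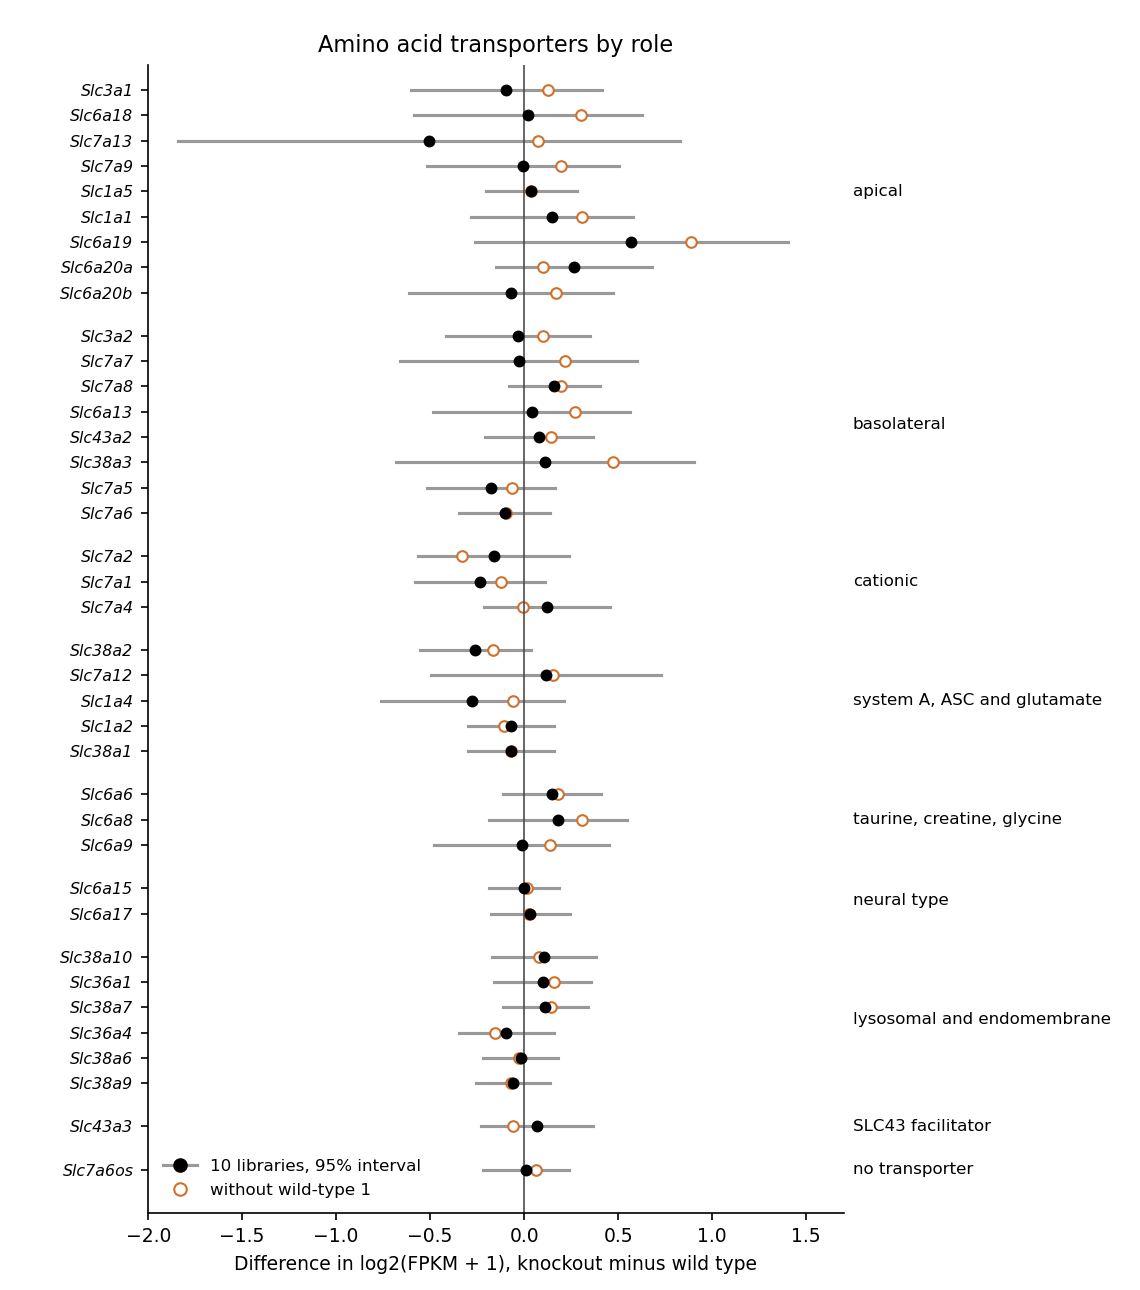
Difference in log2(FPKM + 1), knockout minus wild type, for the 38 members grouped by role. Filled points are fits over all 10 libraries with 95% intervals as bars, and open points are fits without wild-type 1. Every bar crosses 0, and without wild-type 1 all 9 apical points lie to the right of 0.

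Apical carriers were the most abundant group of the transporters, with a summed level of 276.4 to 381.9 FPKM in the knockout kidneys. In wild-type kidneys the sum was 212.8 to 388 FPKM, apart from wild-type 1 at 763.5 FPKM. Of the 9 apical members, 5 had a higher and 4 a lower value in knockout kidneys, with a median log2 difference of 0.022 and a range of -0.51 to 0.57.

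**Figure D2:**
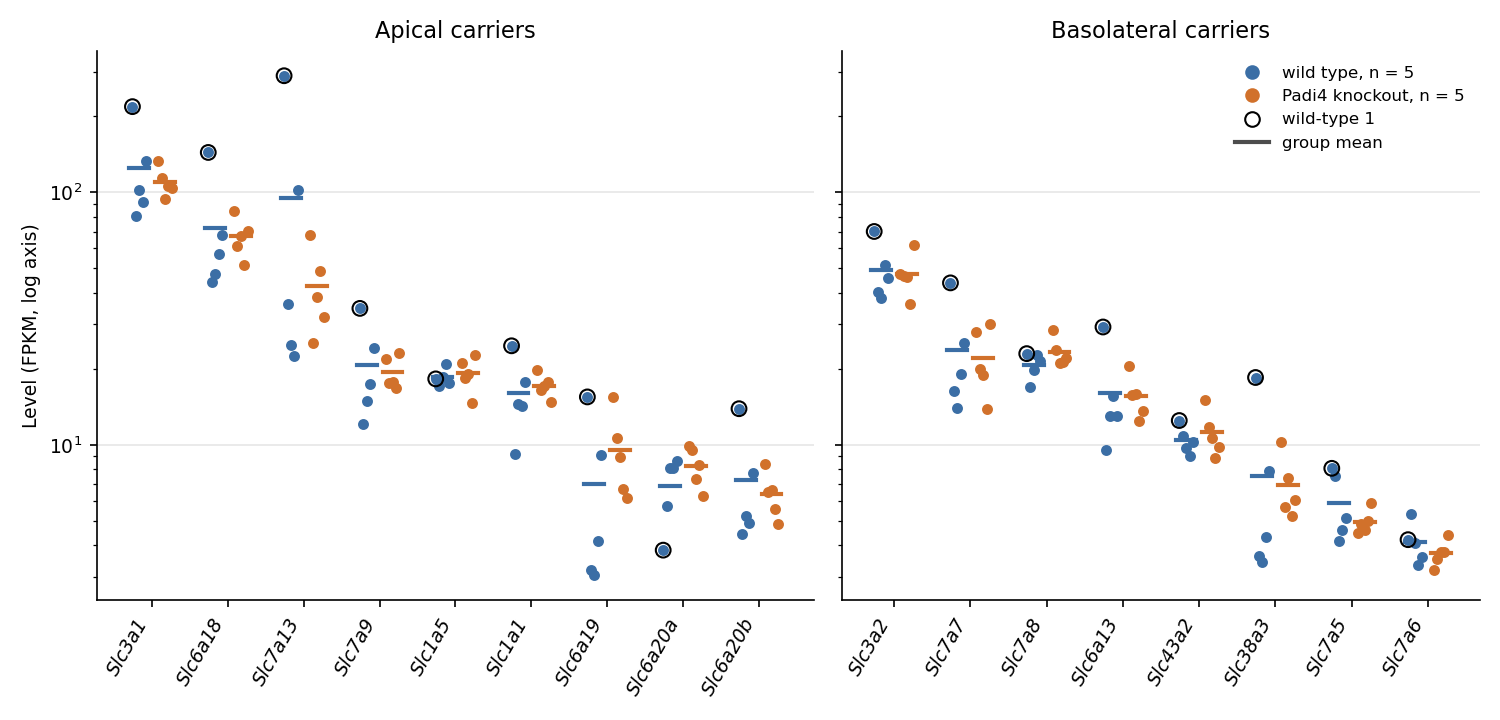
Level in FPKM, on a log axis, of each apical (left) and basolateral (right) member in each of the 10 libraries. Points are libraries, bars are group means of 5, and circles mark wild-type 1, which is highest for 6 of 9 apical and 5 of 8 basolateral members. The points of both genotypes overlap for every gene.

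Slc3a1, the heavy chain of the cystine and dibasic amino acid carrier, had the highest mean level of all 38 members at 118 FPKM. Its gene lies on chromosome 17 from 85028347 to 85064243, on the plus strand. Levels were 219, 80.8, 102, 91.7 and 133 FPKM in wild-type 1 to 5 and 133, 114, 94.5, 106 and 104 FPKM in knockout 1 to 5. Wild-type 1 was the highest and wild-type 2 the lowest, and the knockout kidneys lay within the range of the wild-type ones. The group means were 125 FPKM ± 55.8 (SD, n = 5) in wild type and 110.3 FPKM ± 14.6 (SD, n = 5) in knockout. The log2 difference was -0.095 (SE 0.23, limma adjusted p = 0.981). Exons of the oppositely transcribed gene Prepl cover 26.5% of the exon bases of Slc3a1, and the sources used here do not say whether reads were counted by strand.

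Slc7a9, the light chain that forms the transport pore of this carrier, was present at a lower level than its heavy chain, on chromosome 7 from 35448796 to 35466036, plus strand. It measured 34.7, 12.1, 14.9, 17.5 and 24.3 FPKM in wild-type 1 to 5 and 21.9, 17.6, 17.8, 16.7 and 23.1 FPKM in knockout 1 to 5. The same libraries, wild-type 1 and wild-type 2, held the highest and lowest values as for Slc3a1. The log2 difference was -0.0055 (SE 0.23, limma adjusted p = 0.998), the interval -0.51 to 0.50, and the sign turned with limma-voom (0.0058). The ratio of Slc3a1 to Slc7a9, both in FPKM, stayed within 4.48 to 6.85 in all 10 libraries and was 6.30 in wild-type 1, inside the range of the other 9.

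Slc7a13, the other light chain of Slc3a1, carries aspartate, glutamate and cystine in the last segment of the proximal tubule, and it varied most among the members. Its gene lies on chromosome 4 from 19818725 to 19842218, plus strand. Levels were 289.9, 36.01, 24.9, 22.5 and 102 FPKM in wild-type 1 to 5 and 67.7, 25.2, 38.4, 48.7 and 32.05 FPKM in knockout 1 to 5. Wild-type 1 exceeded the mean of the other 9 libraries 6.56-fold, and wild-type 5 was the next highest. The coefficient of variation was 118% over all libraries and 58.7% without wild-type 1. The log2 difference of -0.51 (SE 0.61, limma adjusted p = 0.976), the lowest of any member, became 0.072 without wild-type 1. Slc7a13 is known as a male-biased gene in mouse kidney. Transcripts of the female-specific gene Xist were at most 0.0164 FPKM and those of the Y-linked gene Ddx3y were 10.5 to 18.6 FPKM, so the libraries did not differ in the sex that these genes mark.

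The sum of both light chains reached 1.48 times the level of Slc3a1 in wild-type 1 and 0.377 to 0.951 times in the other libraries. In knockout 1 to 5 this ratio was 0.672, 0.377, 0.594, 0.615 and 0.532. In wild-type 1 to 5 it was 1.48, 0.596, 0.3903, 0.436 and 0.951. Slc7a13 was above Slc7a9 in every library, 8.35 times in wild-type 1 and 1.28 to 4.21 times in the others. Slc3a1 thus had the higher RNA level in 9 libraries, and Slc7a13 alone exceeded it in wild-type 1. Amounts of the protein chains were not measured.

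**Figure D3:**
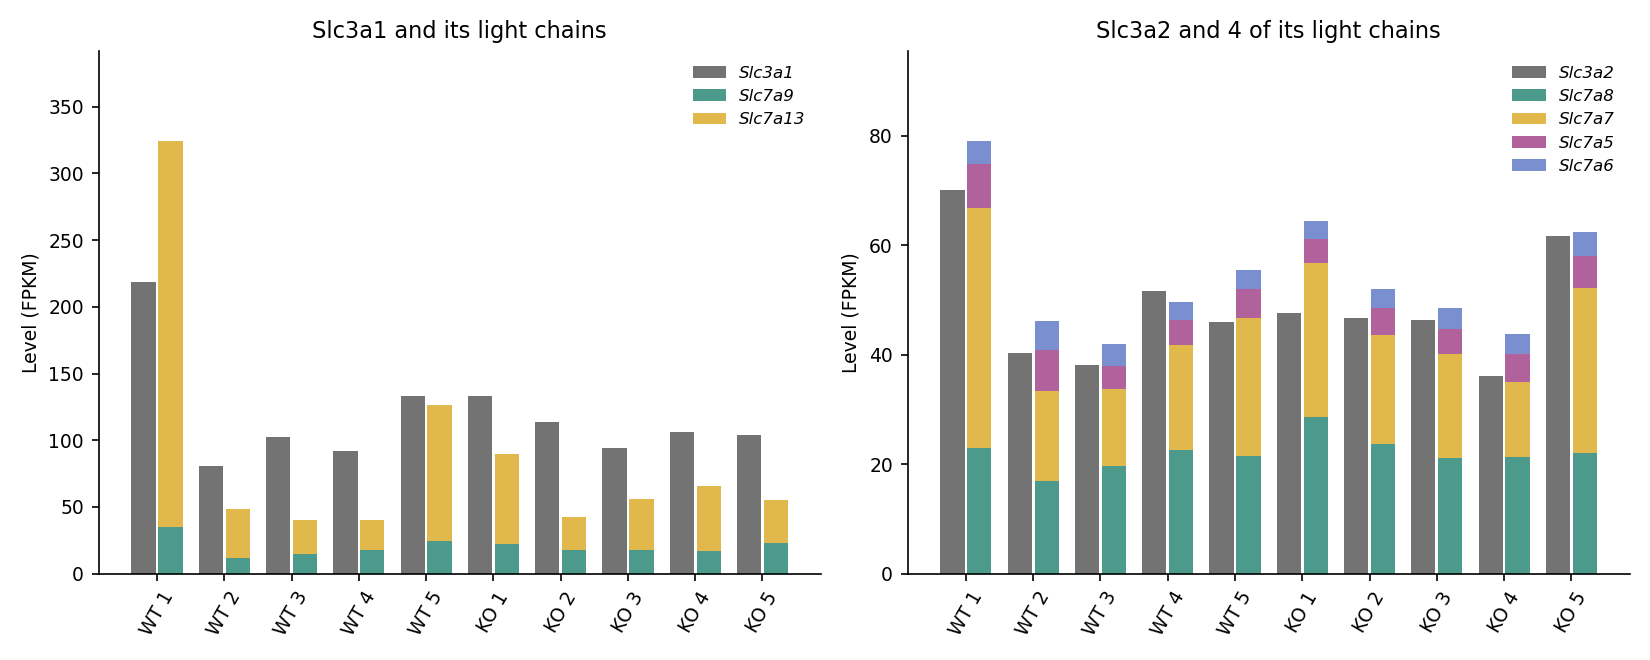
Levels in FPKM of the heavy chains (grey) and of their light chains (stacked) in each library, for Slc3a1 with Slc7a9 and Slc7a13 (left) and Slc3a2 with Slc7a5, Slc7a6, Slc7a7 and Slc7a8 (right). The light chains shown exceed Slc3a1 only in wild-type 1, while the sum of those shown for Slc3a2 stays at 0.961 to 1.35 times Slc3a2 in all 10 libraries.

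The upstream sequences of Slc3a1 and Slc7a9, the heavy and light chain of the same carrier, are shown as a description. A shared control of these genes was not tested. The sequences are from RefSeq (GRCm38.p6), on the plus strand, 5′ to 3′. For Slc3a1 the 250 bases before the RefSeq start are shown. For Slc7a9, the first 195 of the 250 bases before a RefSeq start are shown, so the stretch stops short of that start. They lie inside the deposited span of the gene, after its first annotated exon and up to the next. Positions are chr17:85028097-85028346 and chr7:35448842-35449036.
Slc3a1: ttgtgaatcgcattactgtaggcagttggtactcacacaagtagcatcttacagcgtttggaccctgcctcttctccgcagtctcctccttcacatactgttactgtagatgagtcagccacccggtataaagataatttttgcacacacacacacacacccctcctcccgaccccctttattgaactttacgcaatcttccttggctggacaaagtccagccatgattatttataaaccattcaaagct
Slc7a9: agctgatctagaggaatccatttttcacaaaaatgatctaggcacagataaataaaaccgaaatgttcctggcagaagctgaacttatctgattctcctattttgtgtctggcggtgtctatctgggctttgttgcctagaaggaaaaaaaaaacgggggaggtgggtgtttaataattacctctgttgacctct
Of the 37 members other than Slc7a6os, 24 had a RefSeq promoter entry, with 37 starts among them. The core TTGCATC of the amino acid response element, searched on both strands, lay before 1 of these starts (Slc7a7, 2.7%) and before 2.19% of all 32851 starts. Only the 250 bases before each start were searched, so a copy after the start or farther away would be missed. Neither sequence shown holds it. A match describes these letters and is no evidence of binding.

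Slc6a18 and Slc6a19 carry neutral amino acids across the brush border and lie side by side on chromosome 13 (73661752 to 73678023 and 73679745 to 73704865, minus strand). Slc6a18 was the more abundant, with 144, 44.2, 47.5, 56.9 and 67.8 FPKM in wild-type 1 to 5 and 84.2, 61.6, 67.4, 51.5 and 70.2 FPKM in knockout 1 to 5. Wild-type 1 lay far above the other 4 wild-type kidneys, which overlapped the knockout kidneys. The log2 difference was 0.022 (SE 0.28, limma adjusted p = 0.998).

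Slc6a19, the Hartnup carrier, had the largest fitted difference in favour of knockout kidneys. It measured 15.5, 3.21, 3.04, 4.16 and 9.099 FPKM in wild-type 1 to 5 and 15.5, 10.6, 8.92, 6.697 and 6.17 FPKM in knockout 1 to 5. Wild-type 2, 3 and 4 were below every knockout kidney, while wild-type 1 and wild-type 5 lay within the knockout range. The group means were 6.998 FPKM ± 5.35 (SD, n = 5) and 9.58 FPKM ± 3.76 (SD, n = 5), and the log2 difference 0.57 (SE 0.38, unadjusted p = 0.161, limma adjusted p = 0.976) was within the spread between libraries. Relative to its neighbour, Slc6a19 stood at 0.0903 ± 0.0297 (SD, n = 5) of the level of Slc6a18 in wild-type and 0.141 ± 0.0382 (SD, n = 5) in knockout kidneys, with overlapping ranges of 0.0641 to 0.134 and 0.088 to 0.184.

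Slc6a20a, a carrier of proline and other imino acids, and its paralog Slc6a20b are neighbours on chromosome 9 (123634770 to 123678885 and 123590800 to 123632565, minus strand). Their values are uncertain, because they are close copies and reads that fit both may have been dropped or split. Slc6a20a measured 3.83, 5.71, 8.12, 8.08 and 8.64 FPKM in wild-type 1 to 5 and 9.905, 9.504, 7.32, 8.35 and 6.25 FPKM in knockout 1 to 5. Slc6a20b measured 13.9, 4.45, 5.22, 4.903 and 7.74 FPKM and 8.36, 6.49, 6.63, 5.56 and 4.85 FPKM in the same order. Wild-type 1 held the lowest value of the first and the highest of the second, so that their ratio was 0.275 there and 1.10 to 1.65 in the other 9 libraries. Neither passed the test between genotypes, with log2 differences of 0.26 (SE 0.19) and -0.069 (SE 0.25) and limma adjusted p-values of 0.976 and 0.9903. Exons of Gm17120 cover 13.8% of those of Slc6a20a on the opposite strand, and exons of Sacm1l cover 21.1% of those of Slc6a20b.

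Slc1a1, the glutamate and aspartate carrier of the brush border, measured 24.7, 9.24, 14.5, 14.3 and 17.8 FPKM in wild-type 1 to 5 and 19.8, 16.5, 17.1, 17.7 and 14.8 FPKM in knockout 1 to 5. The knockout kidneys lay within the wild-type range. Slc1a5, an exchanger of glutamine and other small neutral amino acids, measured 18.3, 17.1, 18.6, 20.9 and 17.6 FPKM and 21.1, 18.4, 19.03, 14.7 and 22.7 FPKM in the same order. It was the apical member least tied to wild-type 1, which stood at 0.966 times the mean of the others. The log2 differences were 0.15 (SE 0.20) and 0.039 (SE 0.11), with limma adjusted p-values of 0.976 and 0.985. For Slc1a1, 31.9% of 8257 annotated exon bases are shared with the opposite-strand gene 4430402I18Rik. The deposited length of Slc1a1 is 6170 bases, so the share of the counted bases may differ.

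Basolateral carriers were lower as a group than the apical ones. Their summed level was 106.5 to 157.9 FPKM in knockout kidneys and 106.4 to 132.6 FPKM in wild-type kidneys other than wild-type 1, which reached 209.5 FPKM. Of the 8 members, 4 had a higher and 4 a lower value in knockout kidneys, and the median log2 difference was 0.0070, or -0.0045 with upper quartile scaling.

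Slc3a2, the heavy chain of the basolateral exchangers and of carriers in most dividing cells, is on chromosome 19 from 8706882 to 8723369, minus strand. It measured 70.04, 40.3, 38.2, 51.7 and 45.9 FPKM in wild-type 1 to 5 and 47.6, 46.7, 46.4, 36.1 and 61.6 FPKM in knockout 1 to 5. Wild-type 1 and knockout 5 were the highest, and knockout 4 the lowest. The log2 difference was -0.031 (SE 0.17, limma adjusted p = 0.996).

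Slc7a7, its light chain for the export of dibasic amino acids, is on chromosome 14 from 54369442 to 54417780, minus strand, and is known from macrophages as well as tubules. It measured 43.8, 16.3, 14.1, 19.04 and 25.3 FPKM in wild-type 1 to 5 and 28.1, 19.9, 18.9, 13.8 and 30.1 FPKM in knockout 1 to 5. Wild-type 1 and knockout 5 were again the highest, and knockout 4 and wild-type 3 the lowest. Its log2 difference was -0.028 (SE 0.29, limma adjusted p = 0.998). Slc7a8, the light chain for neutral amino acids, measured 22.99, 16.98, 19.7, 22.6 and 21.5 FPKM and 28.6, 23.7, 21.2, 21.2 and 22.03 FPKM in the same order. It varied less than Slc7a7, with a coefficient of variation of 13.5% against 40.2%, and wild-type 1 was not apart. Its log2 difference was 0.16 (SE 0.11, unadjusted p = 0.172, limma adjusted p = 0.976).

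Slc7a5, the light chain for large neutral amino acids in growing cells, measured 8.08, 7.502, 4.16, 4.61 and 5.13 FPKM in wild-type 1 to 5 and 4.496, 4.88, 4.62, 4.98 and 5.87 FPKM in knockout 1 to 5. Slc7a6, a light chain related to Slc7a7, measured 4.21, 5.33, 4.09, 3.34 and 3.596 FPKM and 3.19, 3.54, 3.78, 3.77 and 4.39 FPKM in the same order. Both were minor chains: Slc7a7 made up 31.6% to 55.4% and Slc7a8 29.1% to 48.5% of the summed level of these 4 light chains. Slc7a11 and genes below the minimum were not counted in this sum. The sum was 0.961 to 1.35 times the level of Slc3a2 in every library, a narrower range than that of the light chains of Slc3a1. The log2 differences of Slc7a5 and Slc7a6 were -0.17 (SE 0.16) and -0.10 (SE 0.11), with limma adjusted p-values of 0.976 and 0.976.

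The other basolateral members work without a heavy chain. Slc6a13, a carrier of GABA and taurine, measured 29.3, 9.54, 13.1, 15.6 and 13.02 FPKM in wild-type 1 to 5 and 20.6, 15.8, 15.9, 12.5 and 13.6 FPKM in knockout 1 to 5. Slc38a3, which takes up glutamine for ammonia formation in acidosis, measured 18.5, 3.64, 3.43, 4.31 and 7.85 FPKM and 10.2, 5.68, 7.39, 5.24 and 6.06 FPKM in the same order. In both, wild-type 1 was the highest library, at 2.04 and 3.09 times the mean of the others. Slc43a2, a facilitator of branched-chain and aromatic amino acids, measured 12.5, 10.8, 9.70, 9.01 and 10.3 FPKM in wild-type 1 to 5 and 15.1, 11.8, 10.7, 8.87 and 9.83 FPKM in knockout 1 to 5, and knockout 1 was the highest. Their log2 differences were 0.042 (SE 0.24), 0.11 (SE 0.36) and 0.081 (SE 0.13), with limma adjusted p-values of 0.996, 0.9897 and 0.976.

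Among carriers with no assigned side of the tubule cell, Slc38a2 had the smallest unadjusted p of all 38 members. Slc38a2 encodes a sodium-coupled system A carrier of small neutral amino acids, known to be raised by amino acid shortage and by hypertonicity. It measured 35.9, 28.5, 26.1, 21.5 and 25.96 FPKM in wild-type 1 to 5 and 21.5, 21.8, 18.98, 27.5 and 23.8 FPKM in knockout 1 to 5. The groups overlapped, with knockout 4 above 3 of the wild-type kidneys. The means were 27.6 FPKM ± 5.29 (SD, n = 5) and 22.7 FPKM ± 3.19 (SD, n = 5), and the log2 difference was -0.26 (SE 0.14, interval -0.56 to 0.036, unadjusted p = 0.0793, limma adjusted p = 0.976). Without wild-type 1 it was -0.16.

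The cationic carriers Slc7a1 and Slc7a2 bring arginine into cells, and Slc7a2 is known for arginine supply in activated macrophages. Slc7a1 measured 7.56, 6.45, 4.34, 3.98 and 4.81 FPKM in wild-type 1 to 5 and 3.93, 4.24, 3.44, 5.43 and 4.92 FPKM in knockout 1 to 5. The highest values were those of wild-type 1 and 2. Its log2 difference was -0.23 (SE 0.16, unadjusted p = 0.165, limma adjusted p = 0.976). Slc7a2 averaged 8.39 FPKM ± 2.36 (SD, n = 5) in wild-type and 7.22 FPKM ± 1.24 (SD, n = 5) in knockout kidneys, with its lowest value, 4.699 FPKM, in wild-type 1 and a log2 difference of -0.16 (SE 0.18). Slc7a4, for which no transport is known, averaged 2.32 FPKM over all libraries, with a log2 difference of 0.12 (SE 0.15), and exons of P2rx6 cover 13.3% of its exon bases on the opposite strand.

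Slc1a4, an exchanger of alanine, serine and cysteine, had one of the 4 largest differences among the members. It measured 23.8, 11.7, 9.298, 10.00 and 12.4 FPKM in wild-type 1 to 5 and 10.1, 9.902, 8.71, 8.98 and 14.8 FPKM in knockout 1 to 5. Wild-type 1 stood far above all other libraries, and knockout 5 above the other knockout kidneys. The log2 difference of -0.28 (SE 0.22, limma adjusted p = 0.976) was -0.061 without wild-type 1. Slc7a12, a light chain that is female-biased in mouse kidney, averaged 16.01 FPKM ± 4.98 (SD, n = 5) and 17.8 FPKM ± 6.695 (SD, n = 5), with a log2 difference of 0.12 (SE 0.28).

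Slc6a6, the taurine carrier, was the second most abundant member at a mean of 73.4 FPKM. It measured 75.2, 54.2, 67.5, 77.4 and 73.7 FPKM in wild-type 1 to 5 and 88.7, 83.9, 70.6, 68.1 and 74.4 FPKM in knockout 1 to 5. Wild-type 2 was the lowest and knockout 1 the highest. The log2 difference was 0.15 (SE 0.12, unadjusted p = 0.232, limma adjusted p = 0.976). Slc6a8, the creatine carrier, averaged 47.5 FPKM ± 11.7 (SD, n = 5) in wild-type and 53.6 FPKM ± 9.26 (SD, n = 5) in knockout kidneys, a log2 difference of 0.18 (SE 0.17). Slc6a9, a glycine carrier, averaged 4.72 FPKM over all libraries, with a log2 difference of -0.013 (SE 0.21), and exons of Ccdc24 cover 27.8% of its exon bases on the opposite strand.

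Carriers of lysosomes and other inner membranes, 6 in all, had levels from 1.09 to 31.7 FPKM. Slc38a10 was the most abundant of them at 31.7 FPKM, followed by the proton-coupled lysosomal carrier Slc36a1 at 9.07 FPKM, Slc38a7 at 7.04 FPKM and Slc36a4 at 4.56 FPKM. Slc38a6 averaged 1.68 FPKM. Slc38a9, a lysosomal sensor of arginine that acts on mTORC1, averaged 1.09 FPKM. Of these, 3 had a higher and 3 a lower value in knockout kidneys, with a median log2 difference of 0.040 (0.025 without wild-type 1) and a range of -0.094 to 0.11. The coefficient of variation over all libraries was 9.96% for Slc38a9 and 15.5% for Slc36a4, the lowest and highest of the group. The neural carriers Slc6a15 and Slc6a17 averaged 8.01 FPKM and 2.12 FPKM, with log2 differences of 0.0016 (SE 0.085) and 0.033 (SE 0.096), the former -0.0094 with upper quartile scaling. Slc43a3, which in human cells carries purine nucleobases, averaged 19.4 FPKM, with a log2 difference of 0.069 (SE 0.14). Slc7a6os averaged 4.86 FPKM, with a log2 difference of 0.011 (SE 0.10).

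The members nearest to the minimum level were Slc1a2, a glutamate carrier best known from astrocytes, Slc38a1 and Slc38a9. Slc1a2 measured 1.16, 1.35, 1.96, 1.34 and 1.303 FPKM in wild-type 1 to 5 and 1.27, 1.48, 1.23, 1.38 and 1.13 FPKM in knockout 1 to 5. Slc38a1, a glutamine carrier, measured 1.36, 1.66, 1.43, 1.24 and 1.26 FPKM and 1.49, 1.28, 1.12, 1.59 and 0.968 FPKM in the same order. Slc38a9 measured 1.07, 1.18, 1.08, 1.28 and 1.04 FPKM and 1.02, 0.867, 1.08, 1.13 and 1.13 FPKM. All 3 overlapped between the groups, and their log2 differences were -0.069, -0.068 and -0.059.

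Just below the minimum lay Slc6a4, the serotonin carrier, with 1.07, 0.337, 0.622, 1.25 and 0.557 FPKM in wild-type 1 to 5 and 1.43, 1.05, 0.916, 1.17 and 0.638 FPKM in knockout 1 to 5. It was the only excluded candidate with a group mean above 1 FPKM, 1.04 FPKM in knockout kidneys. Slc36a2, an apical carrier of proline and glycine, measured 0.498, 0.528, 0.644, 0.668 and 1.305 FPKM and 0.8504, 0.526, 0.517, 0.179 and 2.11 FPKM, and Slc43a1 measured 0.529, 0.668, 0.535, 0.826 and 0.786 FPKM and 0.594, 0.738, 0.852, 1.16 and 0.949 FPKM in the same order. In all, 25 candidates were below the minimum, 14 of them under 0.1 FPKM. Slc6a5, the neuronal glycine carrier, had 0 reads in every library, and the intestinal carrier Slc6a14 averaged 0.137 FPKM.

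Without wild-type 1, no member passed the threshold either, but the values shifted. Of the 38 members, 25 then had a higher value in knockout kidneys, as had 6990 of all 13435 genes. The median log2 difference was 0.090 over the members and 0.0071 over all genes. All 9 apical and 6 of 8 basolateral members were higher, with medians of 0.17 each. Beside them, all 17 proximal tubule markers were higher in knockout kidneys, with a median of 0.34, where 10 of 17 were higher with wild-type 1 (median 0.059). Besides Slc6a19, the apical differences were then 0.13 for Slc3a1, 0.20 for Slc7a9, 0.072 for Slc7a13, 0.30 for Slc6a18, 0.10 for Slc6a20a, 0.17 for Slc6a20b, 0.31 for Slc1a1 and 0.036 for Slc1a5. The basolateral ones were 0.10 for Slc3a2, 0.22 for Slc7a7, 0.20 for Slc7a8, -0.066 for Slc7a5, -0.094 for Slc7a6, 0.27 for Slc6a13, 0.47 for Slc38a3 and 0.14 for Slc43a2. Slc3a1, Slc7a9, Slc7a13, Slc6a20b, Slc3a2 and Slc7a7 thus went from a lower to a higher value in knockout kidneys. The part of tubule content in the shift of the carriers was not tested. At an unadjusted p under 0.05 there were then 3 members, 2 higher and 1 lower in knockout kidneys, against 6.82% of all genes (3.49% higher and 3.33% lower). Slc6a19 stood at 0.89 (interval 0.23 to 1.54, unadjusted p = 0.0123), Slc7a2 at -0.33 (unadjusted p = 0.0245) and Slc6a8 at 0.31 (unadjusted p = 0.04402). Their limma adjusted p-values were 0.724 to 0.727. With wild-type 2 left out instead, 13 of the 38 members were higher in knockout kidneys. The medians were then -0.12 for the apical and -0.067 for the basolateral members.

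Carriers differed in how far they stood apart in wild-type 1. The first wild-type library held the highest value of 17 of the 38 members (44.7%, against 19.8% of all genes) and the lowest of 4 (10.5%, against 17.2%). Slc7a13, Slc38a3, Slc6a18, Slc6a20b, Slc1a4, Slc7a7, Slc6a19, Slc3a1 and Slc6a13 were each more than 2 times the mean of the other 9 libraries. Slc6a20a, Slc7a4, Slc7a2 and Slc43a3 were the 4 that were lowest there, at 0.479, 0.494, 0.577 and 0.633 times the others. Slc7a8, Slc1a5 and the 6 lysosomal carriers lay between 0.821 and 1.16 times the others. This library was described because it stood apart in all genes, and its ratios carry no test.

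**Figure D4:**
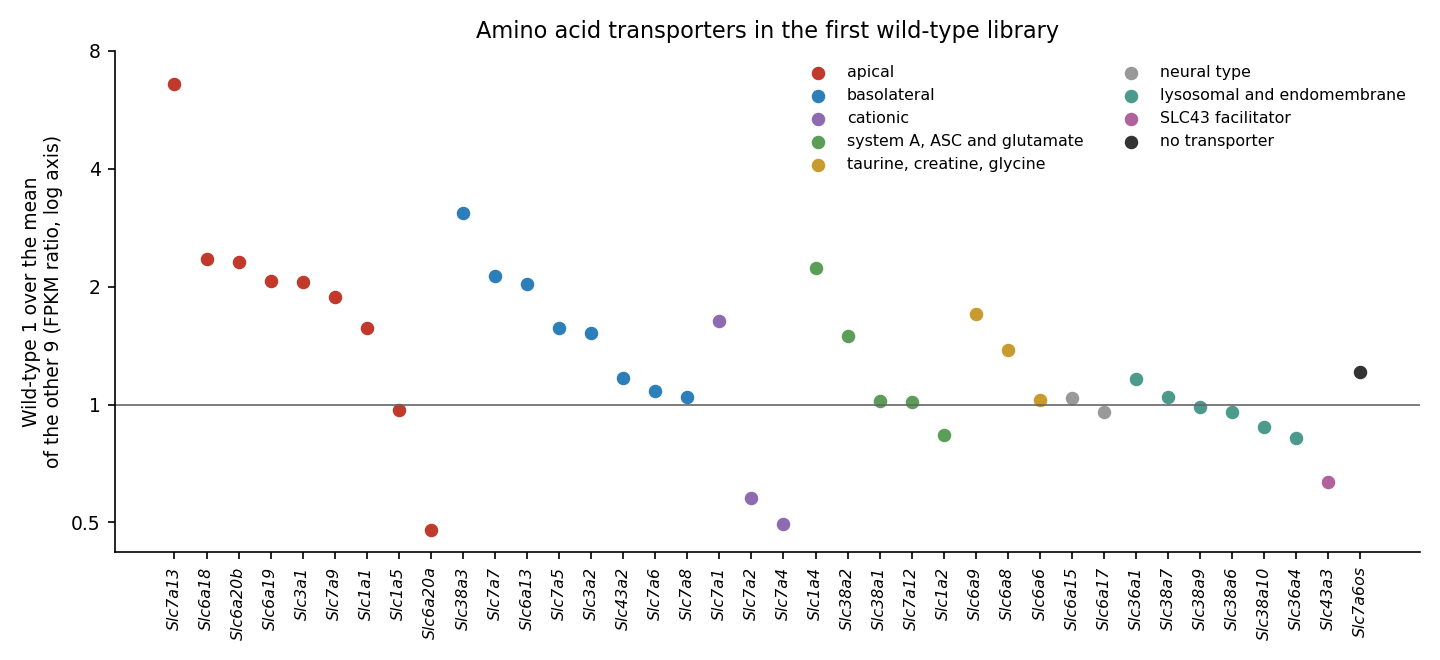
Level of each member in wild-type 1 divided by the mean of the other 9 libraries, on a log axis, by role. Slc7a13 lies highest at 6.56 and Slc6a20a lowest at 0.479, and the lysosomal and endomembrane carriers lie near 1.

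Chains of the same complex were compared over the 10 libraries, with 12 pairs of genes in all, 4 of them comparators with a gene that is no partner. Pearson correlations on log2(FPKM + 1) were tested by permutation and adjusted over the 12 pairs. By Pearson r, both light chains of Slc3a1 and 1 of the 4 light chains examined with Slc3a2 varied with their heavy chain. For Slc3a1 with Slc7a9, r was 0.89 (rho 0.73, permutation p = 0.00076, adjusted p = 0.00312). For Slc3a1 with Slc7a13, r was 0.89 (rho 0.70, permutation p = 0.00288, adjusted p = 0.00576). For Slc3a2 with Slc7a7, r was 0.91 (rho 0.88, permutation p = 0.00027, adjusted p = 0.00312). The other light chains of Slc3a2 gave r of 0.48 for Slc7a5, -0.0017 for Slc7a6 and 0.39 for Slc7a8, with rho of 0.25, -0.067 and 0.70 and permutation adjusted p-values of r of 0.197, 0.996 and 0.3104. The permutation test of rho gave adjusted p-values of 0.0491 for Slc3a1 with Slc7a9 and 0.0113 for Slc3a2 with Slc7a7. It gave 0.05297 both for Slc3a1 with Slc7a13 and for Slc3a2 with Slc7a8, so neither passed by rank.

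With the 2 libraries farthest from the median of the heavy chain left out (wild-type 1 and 2 for Slc3a1, wild-type 1 and knockout 5 for Slc3a2), r was 0.62 for Slc7a9, 0.79 for Slc7a13 and 0.74 for Slc7a7. Without wild-type 1 alone, r was 0.77, 0.66 and 0.83, with exact permutation p-values adjusted to 0.0452, 0.102 and 0.0427. The pair of Slc3a1 and Slc7a13 thus no longer passed without that library. For Slc3a2 with Slc7a5, Slc7a6 and Slc7a8, r was then 0.063, -0.17 and 0.41.

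Slc6a19 needs the partner protein collectrin (Cltrn) at the membrane in the kidney. With Cltrn, r was 0.77 (rho 0.85, permutation p = 0.00245, adjusted p = 0.00576). It was 0.70 without the 2 farthest libraries and 0.70 without wild-type 1 (exact permutation adjusted p = 0.0487). Cltrn measured 468, 145, 241, 237 and 323 FPKM in wild-type 1 to 5 and 295, 267, 264, 283 and 259.8 FPKM in knockout 1 to 5. Wild-type 1 was the highest and wild-type 2 the lowest, as for Slc3a1.

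Correlations in the same range were found with a proximal tubule gene that is no partner. With the endocytic receptor gene Lrp2, r was 0.91 for Slc3a1, 0.84 for Slc6a19 and 0.70 for Slc7a9, with rho of 0.84, 0.85 and 0.47 and permutation adjusted p-values of 0.00312, 0.00486 and 0.0379. Without the 2 farthest libraries r was 0.79, 0.89 and 0.21, so the last rests on those libraries. Without wild-type 1 alone, r was 0.79, 0.83 and 0.36, with exact permutation p-values adjusted to 0.0452, 0.0427 and 0.4496, so that Slc7a9 with Lrp2 no longer passed. Slc7a7 and the macrophage gene Csf1r gave r of -0.71 (rho -0.37, permutation p = 0.0253, adjusted p = 0.0379), which also rested on 2 libraries, wild-type 1 and knockout 5, as r was -0.067 without them. Without wild-type 1 alone it was -0.26 (exact permutation adjusted p = 0.607). The points of each pair share a library and its tubule content, whose part in these correlations was not tested.

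**Figure D5:**
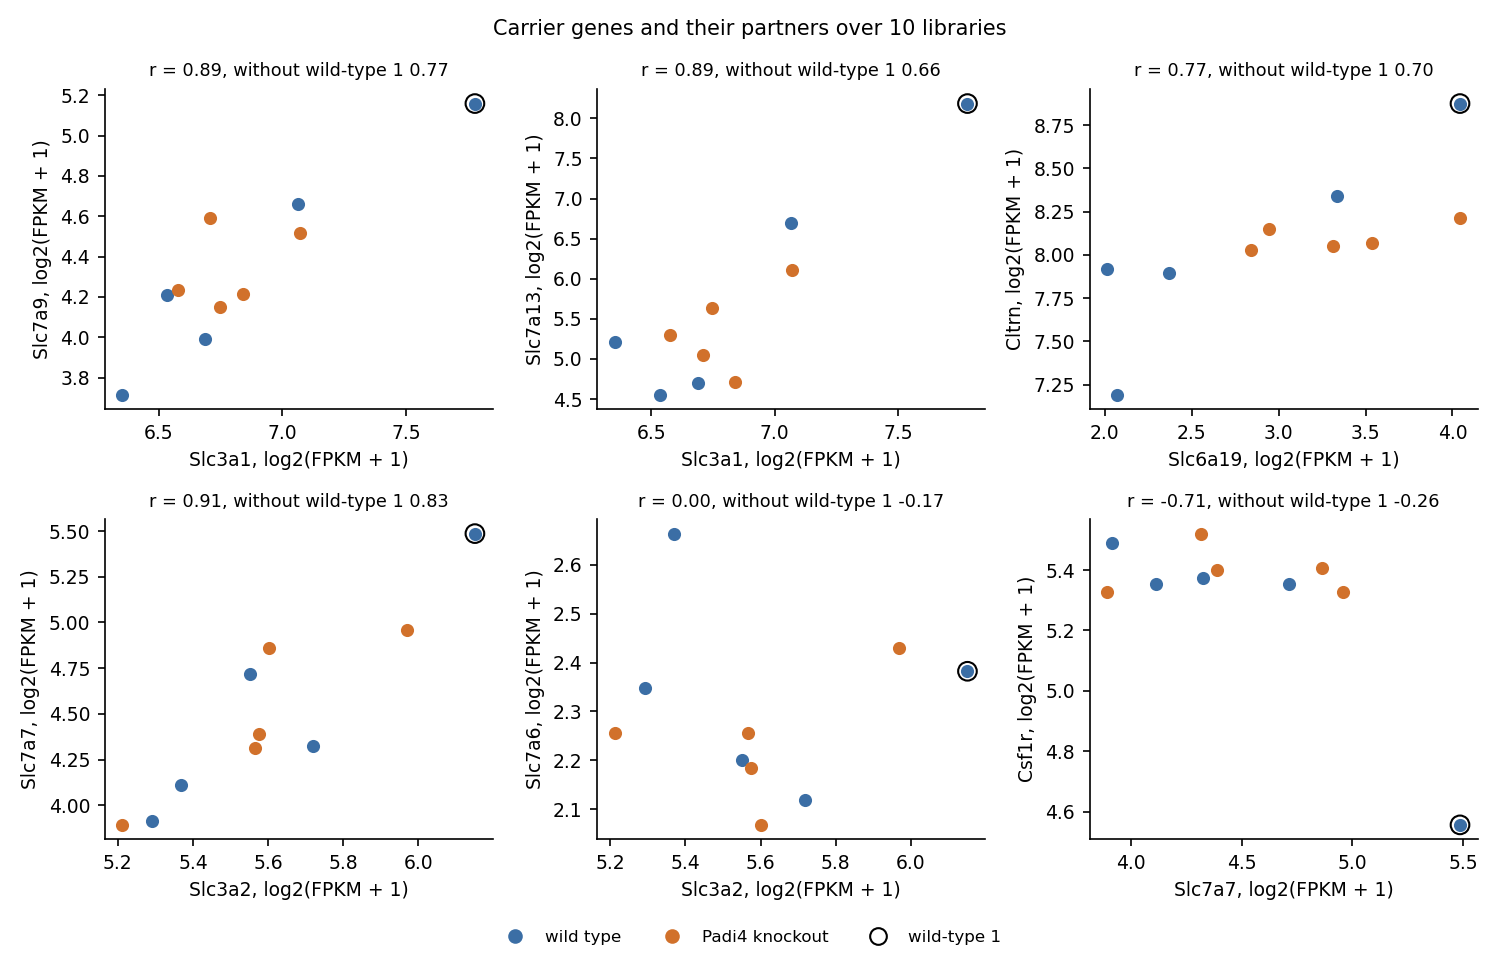
Levels, as log2(FPKM + 1), of 6 of the 12 pairs of genes over 10 libraries. Points are libraries coloured by genotype, and circles mark wild-type 1. Slc3a1 with Slc7a9 (r = 0.89) and Slc3a2 with Slc7a7 (r = 0.91) run along a line, Slc3a2 with Slc7a6 does not, and r of Slc7a7 with Csf1r goes from -0.71 to -0.26 without wild-type 1.

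Among other genes of amino acid handling, 0 were called in any list. Among 16 tested genes of accessory proteins and other carrier families, 10 had a higher and 6 a lower value in knockout kidneys, with a median log2 difference of 0.050. Without wild-type 1, 12 of the 16 were higher, with a median of 0.12. Dpep1, a brush border dipeptidase, averaged 21.4 FPKM ± 2.75 (SD, n = 5) in wild-type and 27.6 FPKM ± 5.84 (SD, n = 5) in knockout kidneys, a log2 difference of 0.33 (unadjusted p = 0.0483, limma adjusted p = 0.976). Slc15a3, a lysosomal carrier of peptides and histidine, stood at -0.25 (unadjusted p = 0.06298). Of 20 genes of the amino acid response, 8 were higher and 12 lower, with a median of -0.12, or 9 higher and a median of -0.021 without wild-type 1. Cebpg, a partner of ATF4 in that response, averaged 14.2 FPKM ± 0.698 (SD, n = 5) and 12.4 FPKM ± 1.13 (SD, n = 5), a difference of -0.18 (unadjusted p = 0.0456, limma adjusted p = 0.976). Eif2ak4, the kinase GCN2 that senses amino acid shortage, stood at -0.23 (unadjusted p = 0.0541). Of 8 genes of the response to hypertonicity, 1 was higher and 7 lower, with a median of -0.19 (-0.21 without wild-type 1). Of these, 0 had an unadjusted p under 0.05 with limma. The regulator Nfat5, with the smallest p, stood at -0.26 (limma unadjusted p = 0.164, adjusted p = 0.976). The taurine carrier Slc6a6 stood at 0.15 (limma unadjusted p = 0.232).

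Among 8 transcription factors of the proximal tubule, 5 were higher and 3 lower, with a median of 0.056 (0.072 without wild-type 1). Ppara, the factor with the smallest p, averaged 7.995 FPKM ± 2.79 (SD, n = 5) in wild-type and 5.95 FPKM ± 1.26 (SD, n = 5) in knockout kidneys. Its log2 difference was -0.34 (limma unadjusted p = 0.107). Hnf4a averaged 81.5 FPKM ± 19.9 (SD, n = 5) and 90.98 FPKM ± 16.1 (SD, n = 5), a difference of 0.17 (limma unadjusted p = 0.353). Of 7 genes of injured tubules all were lower in knockout kidneys, with a median of -0.21. Without wild-type 1, 1 of the 7 was higher, with a median of -0.27. Of 8 macrophage markers 7 were higher, with a median of 0.10, and without wild-type 1 only 1 was, with a median of -0.090. With all libraries, the 1 lower marker, Adgre1, had the smallest p of these 8. Its log2 difference was -0.35 (limma unadjusted p = 0.0357). None of these genes passed an adjusted p of 0.05 with limma.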

How the data were processed

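Per the labels' protocols, TRIzol was used for extraction and an mRNA kit for the libraries. Reads were aligned with HISAT2 2.0.5, per the submitters' processing notes. The sources used here give no counter, use of strand, annotation or build, and 37 of 38 members had GENCODE M21 (GRCm38) coordinates. The values were deposited by the authors without a named unit and were read as FPKM, because with the deposited gene lengths they gave back whole reads within 0.01 reads for 100% of values in each library. These FPKM were already scaled between libraries.

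Group and replicate came from the sample titles. All 13435 genes whose mean reached 1 FPKM were fitted with limma 3.58.1 (R 4.3.3, variance trend) on log2(FPKM + 1), genotype as the only term, with Benjamini-Hochberg adjustment over these genes and a threshold of 0.05. Differences on this scale understate changes of low genes. Correlations used 100000 permutations (scipy 1.17.1), or all orders for 9 libraries. The design set a test of counts for raw counts only, so DESeq2 and edgeR were not run. Alternatives were a pseudocount of 0.1, no filter, a mean of at least 5 FPKM, upper quartile scaling, limma-voom on recovered reads, the replicate number as a block and each library left out. The lowest chi-square per gene between 2 libraries of a group was 12.5, so none was counted as a duplicate. Some results, 1 of the 12 gene pairs among them, are not reported here. Members, gene lists and pairs were chosen with earlier results of these data known. The named genes were every apical and basolateral member, the 6 with the smallest p, the 4 with the largest difference, the 3 on each side of the minimum, and up to 4 per other list.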

Additional observations from a re-analysis of the deposited data

Results flagged for a closer look

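Of 76 groups of 5 libraries (38 members, 2 genotypes), 5 held a library whose gap to the nearest of the others, relative to the range of the group, passed the 95% critical value of Dixon's test. Chance gives about 1 in 20, or 3.8 of 76. In wild-type 1, Slc6a18 stood at 144 FPKM, where the other 4 wild-type kidneys had 44.2 to 67.8 FPKM, and Slc1a4 at 23.8 FPKM, where they had 9.30 to 12.4 FPKM. In wild-type 3, Slc1a2 stood at 1.96 FPKM, where the others had 1.16 to 1.35 FPKM. In knockout 5, Slc1a4 stood at 14.8 FPKM, where the other 4 knockout kidneys had 8.71 to 10.1 FPKM. In knockout 4, Slc43a3 stood at 22.9 FPKM, where the others had 18.2 to 19.5 FPKM. Slc7a13, whose value in wild-type 1 was the farthest from the mean of the other libraries, was not among these, since wild-type 5 lay between. The cause of these values was not tested.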

How the results depend on the processing

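No member and no gene passed the threshold in any of the 17 fits, and 17 members kept 1 sign in every fit that held them; members below 5 FPKM were not in the fit with that minimum. Other settings than the omission of a library turned the sign of 2 members, Slc6a15 with upper quartile scaling (-0.0094) and Slc7a9 with limma-voom (0.0058). With 1 library left out at a time, the log2 difference crossed 0 for 21 members: Slc3a1 (-0.23 to 0.13), Slc6a18 (-0.12 to 0.30), Slc7a13 (-0.84 to 0.072), Slc3a2 (-0.13 to 0.10), Slc7a7 (-0.18 to 0.22), Slc7a9 (-0.16 to 0.20), Slc43a3 (-0.061 to 0.12), Slc1a5 (-0.022 to 0.13), Slc7a12 (-0.040 to 0.33), Slc1a1 (-0.022 to 0.31), Slc6a13 (-0.11 to 0.27), Slc43a2 (-0.023 to 0.15), Slc6a15 (-0.043 to 0.032), Slc38a3 (-0.061 to 0.47), Slc6a20b (-0.19 to 0.17), Slc7a6os (-0.061 to 0.066), Slc6a9 (-0.13 to 0.15), Slc7a4 (-0.0056 to 0.20), Slc6a17 (-0.022 to 0.062), Slc38a6 (-0.061 to 0.0066) and Slc1a2 (-0.11 to 0.0050). The median over members had its lowest value, -0.042, when wild-type 2 was left out and its highest, 0.090, when wild-type 1 was, the apical median from -0.12 to 0.17 and the basolateral median from -0.082 to 0.17. The number of pairs past the threshold by Pearson r ran from 5, without wild-type 1, to 8. All genes at an unadjusted p under 0.05 numbered 544, from 308 without knockout 3 to 1245 without knockout 4, and leaving out wild-type 4 gave 790, wild-type 1 gave 916 and knockout 1 gave 364. No filter gave 1096 among 27780 genes, and a mean of at least 5 FPKM gave 272 among 8470, as more and fewer genes were tested. The replicate numbers did not pair the libraries: deviations of same-numbered libraries correlated at -0.34 to 0.31, above 0.1 in 2 of 5 pairs, and 1 of 5 pairs correlated best with its own number. With the replicate block, 0 genes and 0 members passed, and 435 genes had an unadjusted p under 0.05. Slc7a4 had the fewest reads of the members, 68 to 203 per library.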
